A study of Saccharomyces cerevisiae with 3 samples.

Results

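The seripauperin (PAU) genes of the budding yeast Saccharomyces cerevisiae were read in 3 aerobic, glucose-limited chemostat cultures through 8 genes, PAU3, PAU7, PAU10, PAU13, PAU15, PAU16, PAU19 and PAU23. Each of the 8 had exactly 1 probe set annotated to that gene alone, out of 24 PAU genes in the RefSeq gene table and 5656 genes with a single-gene probe set on the array. The 8 members were selected on signals of these same arrays, and they are the single-gene PAU probe sets that read more than 2-fold lower in culture 2 than in culture 1 with all arrays set to a common median. No threshold is recorded for the choice, and that rule is inferred from this coincidence. The contrast is therefore described here without a test. PAU4 and PAU17 also had a single-gene probe set and fell short of the 2-fold limit, PAU17 only just (1.995-fold, against 2.17-fold for PAU19, the member nearest the limit). All 8 member probe sets carry the family code _f_at, which marks probes that can bind transcripts of several near-identical genes, so each signal is a shared reading of the family and not a measure of 1 gene.

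The 3 cultures form 1 group, labelled carbon-limited and aerobic, with 1 Affymetrix array each. All were steady-state chemostats at a dilution rate of 0.10 per h, 30 °C and pH 5.0, fed a mineral medium with 7.5 g of glucose, 5.0 g of ammonium sulphate, 3.0 g of potassium dihydrogen phosphate, 0.5 g of magnesium sulphate heptahydrate and, per litre, 4.5 mg of hydrated zinc sulphate. Air entered at 0.5 litre per min, with a dissolved oxygen level of at least 80% of saturation. The labels name no strain or genotype, and no culture with another limitation or without oxygen was analysed here. RNA came from whole cultures, so fewer cells expressing a gene and less RNA per cell cannot be told apart.

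Seripauperins are small, secreted, serine-poor proteins of the Srp1/Tip1 family, whose better known members, the TIR and DAN proteins, are serine-rich mannoproteins of the cell wall. PAU genes lie mostly near chromosome ends, are known to be induced without oxygen, in the cold and during alcoholic fermentation, and are repressed in air through heme. The individual proteins have no well-separated roles, and the members are described below by brightness and by pattern.

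None of the 8 members was dim, the term used here for a mean signal below 48.3, the 30th percentile over genes, which takes in 30.0% of genes by construction. Signals of different probe sets do not order genes by transcript abundance. Mean signals ran from 70.9 for PAU3 to 217.9 for PAU10. No member signal in any culture was as low as 26.3, the highest reading of the sense-strand controls, which have no labelled target. A mean signal under the 50th percentile was found for 3 of the 8.

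PAU10, with an annotated coding length of 363 bases, gave the highest mean of the members. Its deposited signals were 272 in culture 1, 242 in culture 2 and 140.1 in culture 3, a mean of 217.9 ± 68.9 (SD, n = 3, as for all SDs here). PAU13, of the same coding length, read 254, 171 and 132 in cultures 1, 2 and 3 (185 ± 62.4). In both genes culture 1 was highest and culture 3 lowest.

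PAU7 is the shortest of the members, with an annotated coding length of 168 bases where the others have 363 to 375. It read 169, 162 and 137 in cultures 1, 2 and 3 (156 ± 17.1). PAU16 read 139, 132 and 98.8 (123 ± 21.5). In these genes cultures 1 and 2 lay close together, with culture 3 below them.

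PAU15 read 110.0 in culture 1, 94.9 in culture 2 and 63.0 in culture 3 (89.3 ± 24.0). PAU19 read 83.6, 89.0 and 63.9 (78.8 ± 13.2), and PAU3 read 78.3, 71.1 and 63.5 (70.9 ± 7.40). Again culture 3 was the lowest, and PAU19 was the only member with its highest deposited signal in culture 2.

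PAU23, known also as DAN2, departed from this order. It read 141 in culture 1, 42.1 in culture 2 and 178 in culture 3 (120.4 ± 70.3), so that culture 3 was the highest and culture 2 the lowest. The plot of deposited signals sets these values beside the array medians.

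**Figure D1:**
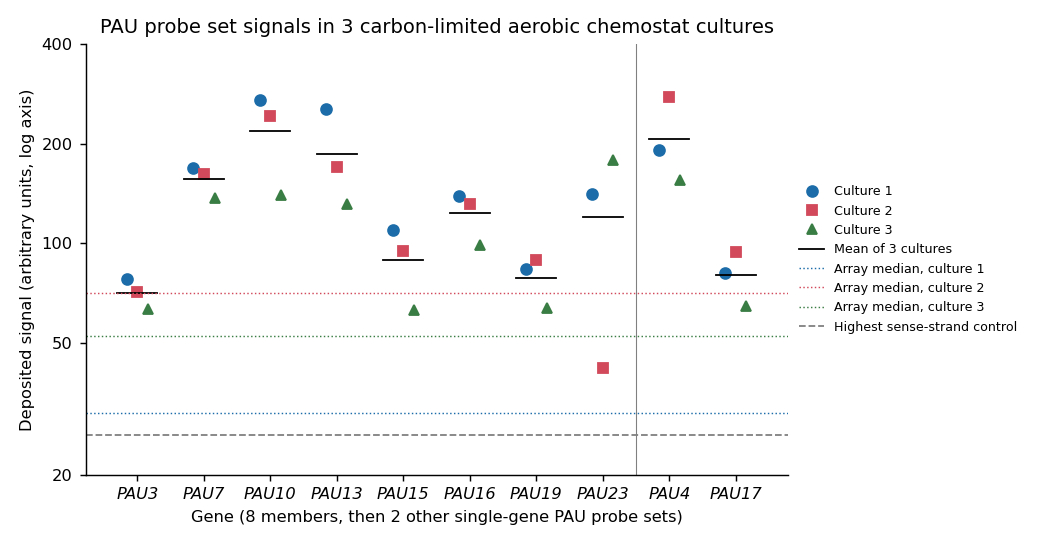
Deposited signal (arbitrary units, log axis) of the 8 members and, right of the vertical line, of PAU4 and PAU17, with 1 point per culture and a bar at the mean of 3. Dotted lines are array medians and the dashed line is the highest sense-strand control (26.3): signals in culture 1 are as high as or higher than those in culture 2 for 7 of 8 members, although the array median of culture 2 (70.9) is above that of culture 1 (30.6).

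The deposited signals do not share a scale between arrays. Array medians over all probe sets were 30.6, 70.9 and 52.5 for cultures 1, 2 and 3, and the median gene that was not dim stood 1.21 (log2) higher in culture 2 than in culture 1 and 0.80 higher in culture 3 than in culture 1. The members did not share these rises: 7 of 8 read no higher in culture 2 than in culture 1 as deposited, where 1.09% of the 3959 genes that were not dim did so, and 7 of 8 had their lowest deposited signal in culture 3, where 1.01% of those genes did. Both counts are given as a description, since the first uses the contrast that matches the choice of members and the second shares culture 1 with it.

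Rank within an array does not depend on its scale. In culture 1 the members lay between the 60.9th and 86.7th percentile of the 5656 genes, with a median of 75.6. In culture 2 they lay between 19.7 and 68.9, with a median of 46.1, and in culture 3 between 36.8 and 67.9, with a median of 55.0. PAU10 went from 86.7 in culture 1 to 68.9 and 61.6 in cultures 2 and 3, and PAU3 from 60.9 to 32.4 and 37.1. All 8 members held their highest rank in culture 1. The fall in rank from culture 1 to culture 2 repeats the contrast that matches the choice of members. The hybridization controls, transcripts added to the labelled sample, also ranked highest in culture 1 by their median. Their median percentiles were 62.1, 50.9 and 51.2 in cultures 1, 2 and 3.

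Brought to a common median, the 8 members differed between their highest and lowest culture by 1.18 to 2.95 on the log2 scale, with a median of 1.47, against a median of 0.34 over all genes that were not dim. All 8 passed a 2-fold range, as did 3.49% of those genes, and nothing is read from that count because the inferred rule of choice uses the same values. Culture 1 was the highest for each member, as it was for 1269 of the 3959 genes that were not dim. Relative to culture 1, signals in culture 2 were 2.17-fold lower for PAU19, 2.41 for PAU7, 2.44 for PAU16, 2.54 for PAU3, 2.59 for PAU10, 2.68 for PAU15, 3.44 for PAU13 and 7.71 for PAU23. A drop of that size in culture 2 was seen in 2.02% of genes that were not dim, 80 genes in all. Among these the members held ranks from 2 (PAU23) to 61 (PAU19), counted from the largest drop.

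Culture 3 was also more than 2-fold below culture 1 for 7 of 8 members, where 0.505% of genes that were not dim, 20 in all, showed such a drop. The fold of culture 1 over culture 3 was 2.14 for PAU3, 2.15 for PAU7, 2.27 for PAU19, 2.44 for PAU16, 3.03 for PAU15, 3.34 for PAU13 and 3.36 for PAU10. PAU4 and PAU17 belonged to the same 20 genes, at 2.14-fold and 2.17-fold, which makes 9 PAU genes among the 20. This contrast shares culture 1 with the contrast that matches the choice of members, so the values are set side by side and are not a separate finding. Drops past 2-fold in both cultures were seen in 16 genes, of which 7 were members.

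Between cultures 2 and 3 the members other than PAU23 lay close together. Culture 3 minus culture 2 ranged over those 7 from -0.38 for PAU10 to 0.25 for PAU3 (log2, common median), with a median of -0.0033. It was 2.49 for PAU23. Without culture 1, only PAU23 of the 8 passed a 2-fold difference, where 1.87% of genes that were not dim did. Culture 1 therefore decided the pattern of the 7, and culture 2 that of PAU23, whose difference without culture 2 was 0.46.

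**Figure D2:**
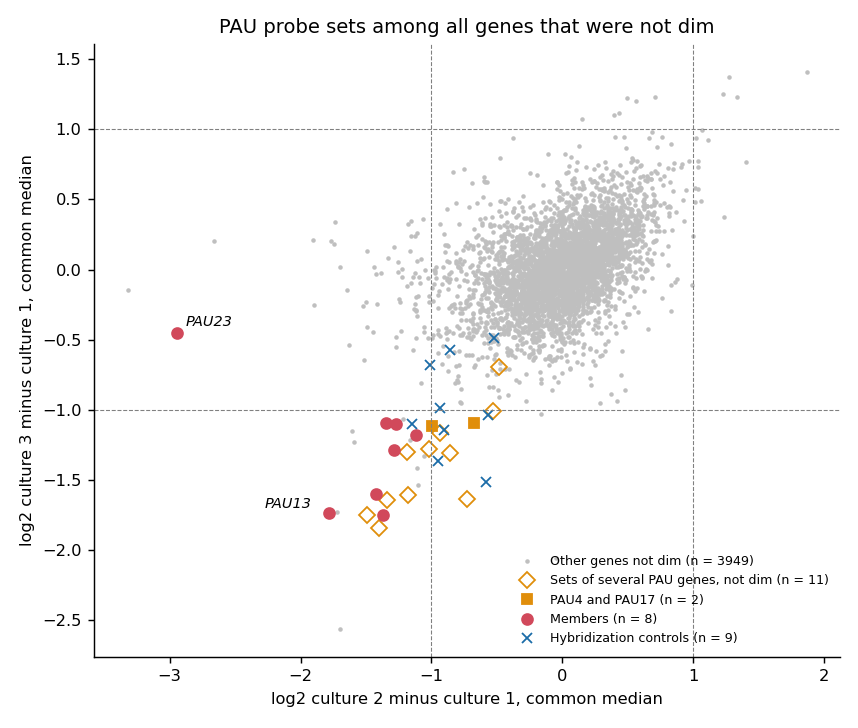
Each gene that was not dim, by its log2 difference of culture 2 from culture 1 (horizontal axis) and of culture 3 from culture 1 (vertical axis), arrays at a common median, with dashed lines at 2-fold. Members (red) except PAU23 sit in the lower left, with the probe sets of several PAU genes (open diamonds) and the hybridization controls (crosses) in or near the same area.

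Among themselves 7 members lay nearer to each other than any of them did to PAU23. Likeness was measured as the Euclidean distance between the log2 deviations of 2 genes from their own 3-culture means, over 3 cultures, so that a small distance means a like pattern. The 21 pairs without PAU23 lay 0.065 to 0.52 apart, the closest being PAU3 and PAU7, and the 7 pairs with PAU23 lay 1.63 to 2.03 apart. With 3 cultures such a distance rests on few values, and those of cultures 1 and 2 match the choice of members. Distances between pairs of other genes were not measured, so it is not known whether these are small for the array. Deviations in culture 1 ran from 0.77 (PAU19) to 1.17 (PAU13), and those in culture 2 from -0.61 (PAU13) to -0.33 (PAU10) with PAU23 at -1.81. In culture 3 they ran from -0.71 (PAU10) to -0.28 (PAU3), with PAU23 at 0.68.

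The genes outside the PAU family whose pattern was most like that of PAU23 were the glutathione transferase gene GTT2 at a distance of 0.47, the mitochondrial translation factor gene MEF1 at 0.48, ISA1 of iron-sulphur cluster assembly at 0.74, the peroxisomal lipase gene LPX1 at 0.79 and TOS6 at 0.84. Each of these read lowest in culture 2 and highest in culture 3 as deposited, for example GTT2 with 45.5, 16.6 and 91.1 in cultures 1, 2 and 3 and LPX1 with 758, 470.0 and 1106. Their probe sets carry no family code. Probe sets of MEF1 and ISA1 are numbered within 75 of that of PAU23. COX12, a cytochrome c oxidase subunit gene that lies next to PAU23 on its chromosome and has the next probe set number, read 1221, 867 and 2140 in cultures 1, 2 and 3, and was chosen after its values were seen. It too was lowest in culture 2 and highest in culture 3. Of 95 probe sets that were not dim and numbered within 75 of PAU23, 7 lay more than 2-fold below the mean of the other cultures in culture 2, as did 1.36% of all probe sets that were not dim. The same window held 7 of 73 around PAU3 and 0 to 3 around each of the other members. The layout of the array was not analysed, and its part in the reading of PAU23 was not tested.

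PAU sequence was also read by 12 probe sets annotated to between 2 and 8 PAU genes each. None is the single-gene probe set of a member, but 7 of the 12 list at least 1 member among their genes. Their folds in culture 2 therefore repeat in part the contrast that matches the choice of members. All 12 can bind the same transcripts on the same arrays, so they are further readings of the family and not replicates. No gene is named from them. Of the 12, 11 were not dim, with mean signals from 54.2 to 357.4. All 11 had their highest common-median signal in culture 1, as did 1269 of the 3959 genes that were not dim and all 9 hybridization controls. The fold of culture 1 over culture 2 ran from 1.40 to 2.82, with a median of 2.02 and 6 of 11 past 2-fold, beside the 2.02% of all genes. The fold of culture 1 over culture 3 ran from 1.62 to 3.59, with a median of 2.48 and 10 of 11 past 2-fold, beside the 0.505%.

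The brightest of these sets, annotated to 2 PAU genes, read 455, 397 and 220 in cultures 1, 2 and 3. The faintest of the 11, annotated to 5, read 43.7, 72.1 and 46.8, and was the only one of the 11 without its lowest deposited signal in culture 3. The remaining set, annotated to 3 PAU genes of which 1 is a member, was dim at 0.70, 10.6 and 5.72, under the sense-strand controls. PAU4 read 191, 276 and 155 and PAU17 read 81.2, 94.0 and 64.9. No PAU probe set outside the members showed the PAU23 order, with culture 2 far below cultures 1 and 3. All 21 PAU probe sets that were not dim, members and others, thus had their highest common-median signal in culture 1.

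**Figure D3:**
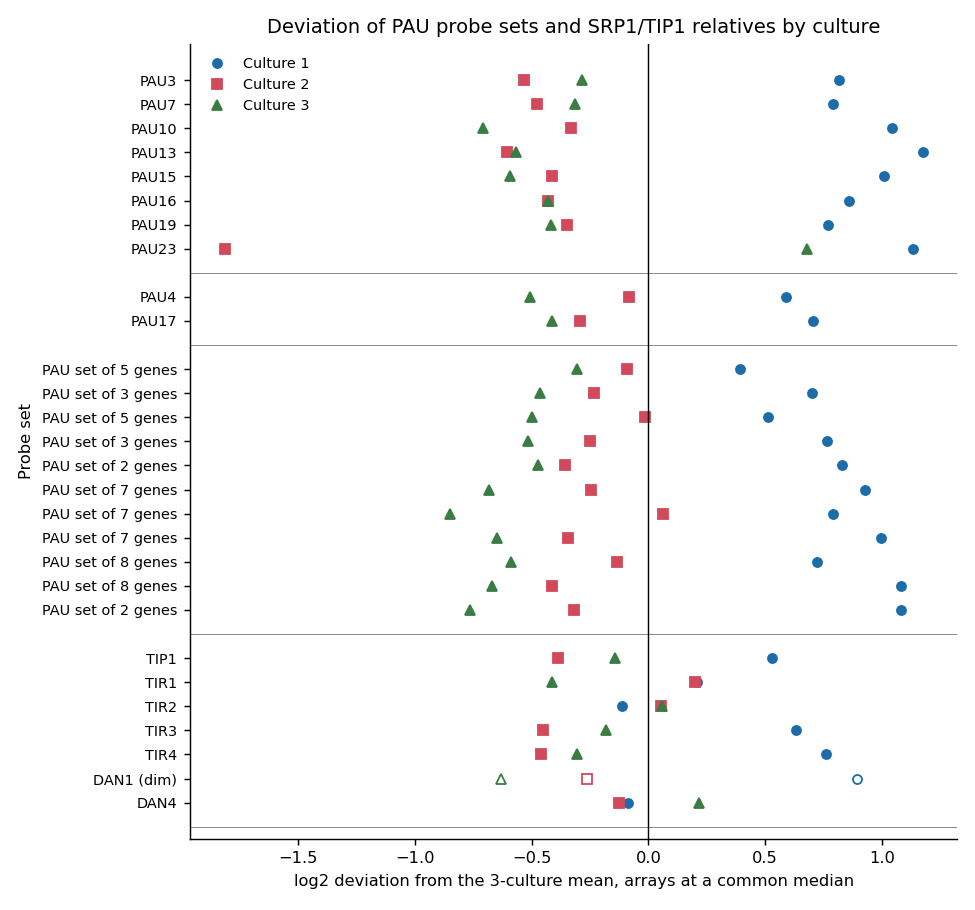
log2 deviation of each probe set from its own 3-culture mean, arrays at a common median, for the 8 members, PAU4 and PAU17, the 11 probe sets of several PAU genes that were not dim (lowest mean signal first) and 7 SRP1/TIP1 relatives, with 1 point per culture. Culture 1 lies at the right for every PAU probe set, while TIR1, TIR2 and DAN4 do not show that spread, and open points mark DAN1, which was dim.

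The serine-rich relatives of the family did not move as a block. Of the relatives that were not dim, TIR3 and TIR4, cell wall mannoproteins of anaerobic growth, came closest to the members. TIR3 read 195, 213 and 193 in cultures 1, 2 and 3, and TIR4 read 139, 138 and 116. At a common median culture 1 exceeded culture 2 by 2.12-fold for TIR3 and 2.33-fold for TIR4. TIP1, the cold-inducible protein for which the family is named, read 5361, 6553 and 5830, with culture 1 over culture 2 at 1.89-fold.

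TIR1, TIR2 and DAN4 moved with the array medians from culture 1 to culture 2. TIR1 read 107, 245 and 120.5, TIR2 read 45.3, 117 and 88.6, and DAN4 read 81.5, 183 and 175, with common-median folds of culture 1 over culture 2 of 1.01, 0.89 and 1.03. DAN1 was dim at 21.3, 22.1 and 12.9, all under the highest sense-strand control. Its common-median folds of culture 1 over cultures 2 and 3 were 2.23 and 2.88, as in the members, but such low signals carry little information. Of the 6 relatives that were not dim, 2 passed a 2-fold drop in culture 2, beside the 2.02% of all genes. In culture 3 only 1, TIR4, did so, beside the 0.505%. The probe sets of the relatives carry no family code.

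Other genes known from anaerobic growth were read beside the members. Of 7 such genes 6 were dim, beside the 30.0% of all genes. They were ANB1 (hypoxic translation factor eIF5A), AAC3 (ADP/ATP carrier), HEM13 (heme synthesis), COX5B (cytochrome c oxidase subunit) and the sterol importer genes AUS1 and PDR11. CYC7, encoding the hypoxic cytochrome c, was not dim and read 43.5, 103 and 55.3. Means of the 6 dim genes ran from 8.12 for AAC3 to 42.2 for HEM13, and each had a culture at or under the 26.3 of the sense-strand controls. CYC7, the 1 gene that could be compared, did not pass a 2-fold range. Of the 7 relatives above, which include genes of anaerobic growth, 6 were not dim, so these signals are no check of the aerobic label.

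Regulators that act on anaerobic and sterol-responsive genes were read as well. Of 11 on the list, 3 were dim, beside the 30.0% of all genes. They include UPC2, the sterol-sensing activator of DAN and TIR genes (12.9, 17.5 and 16.6), and the repressor gene MOT3 (10.8, 22.3 and 17.9). The other dim one was MGA2, encoding an activator of hypoxic genes (24.5, 60.5 and 54.1). None of the other 8 passed a 2-fold range at a common median, beside the 3.49% of all genes. With 8 genes that is near the share of all genes. Their ranges ran from 0.33 for SPT23 to 0.62 for TUP1. ROX1, the heme-dependent repressor of hypoxic genes, read 27.8, 83.2 and 46.6 in cultures 1, 2 and 3. HAP1, the heme-responsive transcription factor, read 102, 203 and 231 by its plain-named probe set. Family-coded probe sets of HAP1 read 415, 875 and 573, and 367, 615 and 379, highest in culture 2 and not in culture 3. The co-repressor genes TUP1 and CYC8 read 107, 212 and 245 and 121, 217 and 237. The sterol regulator ECM22 read 67.5, 205 and 149. In these genes culture 1 was lowest as deposited, where in the members it was not. The array median was also lowest in culture 1, and only 1.09% of genes that were not dim read no higher in culture 2 than in culture 1. The order of the regulators is therefore that of most genes and is not read as a trait of theirs. Transcript signal says nothing of the activity of these proteins.

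The family's position near chromosome ends was taken from gene order in the RefSeq table (assembly R64), without coordinates, since the build behind the probe design is not given. Of the 8 members 6 lay within the outer 10 protein-coding genes of a chromosome: PAU16 (YKL224C) and PAU19 (YMR325W) as the outermost gene, PAU10 (YDR542W) and PAU15 (YIR041W) as the second, PAU3 (YCR104W) as gene 5 and PAU13 (YHL046C) as gene 6. PAU7 (YAR020C) was gene 15 from its end, and PAU23 (YLR037C), the member with the divergent pattern, was gene 100. Of all protein-coding genes 5.33% lie in these outer stretches.

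Over all chromosome ends, 194 genes of the outer stretches outside the PAU family were measured. Of these 111 were dim, beside the 30.0% of all genes, and of the 83 that were not dim 2 lay more than 2-fold lower in culture 2 than in culture 1, beside the 2.02% of all genes, and 0 in culture 3, beside the 0.505%. The shares past 2-fold are near those of all genes, while the dim share is larger. The median deviation of the 83 in culture 1 was -0.046. Of 11 measured genes directly next to a member 10 were dim, and the other was COX12, next to PAU23. At a common median it stood 3.25-fold lower in culture 2 than in culture 1, and its signals in cultures 1 and 3 were within 0.015 (log2) of each other.

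The size of the drop from culture 1 depends on how the arrays are put on a scale. Among not-dim genes whose mean signals fell within the range of the members, 1.86% of 1825 lay more than 2-fold lower in culture 2 than in culture 1, and among the 106 family-coded probe sets outside the PAU family 0% did. Those 106 stood 1.40 (log2) higher in culture 2 than in culture 1 as deposited, and the 8 members stood at -0.15. Both shares are near the 2.02% of all genes, while the members were chosen on values that match this contrast. The part of the family code in the PAU readings was not tested.

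The hybridization controls, bacterial and phage transcripts added to the labelled sample, moved less between arrays than yeast genes did. Over their 9 probe sets the median difference from culture 1 was 0.31 (log2) in culture 2 and -0.25 in culture 3 as deposited, beside the 1.21 and 0.80 of yeast genes and the -0.15 and -0.44 of the members. All 9 controls read higher in culture 2 than in culture 1 as deposited, where 7 of 8 members read lower. At a common median all 9 were highest in culture 1, by a median of 1.87-fold over culture 2 and 2.06-fold over culture 3. Past 2-fold lay 2 of the 9 in culture 2 and 5 in culture 3. Scaled to these controls, the members stood -0.50 lower in culture 2 (range -2.09 to -0.26) and -0.24 lower in culture 3 (range -0.76 to 0.54) than in culture 1, as medians. On that scale 1 of 8 members, PAU23, passed a 2-fold range, where 59.4% of genes that were not dim did, and as deposited 1 of 8 did, where 75.5% did. The median range of the members was 0.65 as deposited and 0.55 on the control scale, beside 1.22 and 1.06 for all genes that were not dim. Whether the yeast genes rose or the PAU signals fell between the samples cannot be told apart from these values, and the part of the amount of labelled RNA was not tested.

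**Figure D4:**
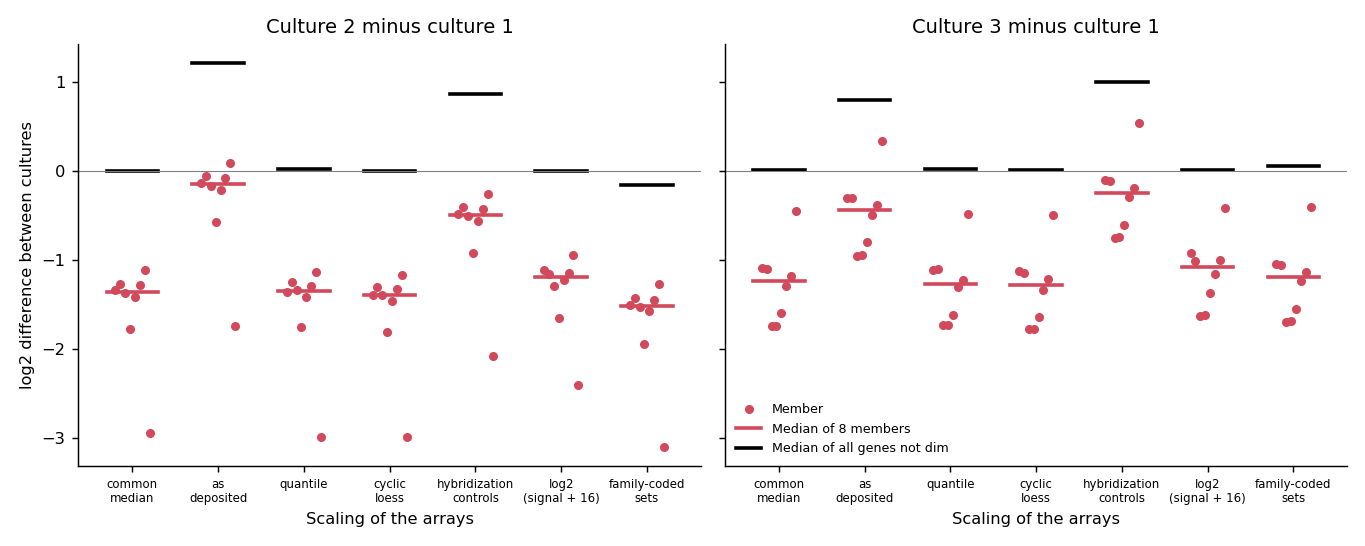
log2 difference of culture 2 (left) and culture 3 (right) from culture 1 for each of the 8 members (points), their median (red bar) and the median of all genes that were not dim (black bar), under 7 ways of scaling the arrays. The red bar lies below the black bar under every one of the 7, while its distance from 0 shrinks for deposited signals and for scaling to the hybridization controls. Common median, as deposited, hybridization controls and family-coded sets differ only by 1 shift per array, which moves both bars alike. The gap between the bars cannot differ among those scalings. The left panel also shows the contrast that matches the choice of members.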

How the data were processed

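Total RNA of each culture was labelled with biotin and hybridized to 1 Affymetrix array, per the labels' protocols. The authors deposited probe set signals, which are linear intensity values. The submitters' processing notes name GCOS. Not given in the sources used here are its settings, the way probes were summarized, and whether arrays were background-corrected or scaled. Values under the floor of 1 were set to 1 before log2. Platform annotation gave 1 gene for 6504 of 9335 probe sets, several for 328 and none for 2443, with 60 control sets left aside. Where a gene had several, the plain-named probe set was used and otherwise the brighter. Genes were named through RefSeq (R64).

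The members and lists were chosen with earlier results of these data known. With 1 group no test was made, no p-value is given, and lists are described by counts and medians beside those of all genes. For comparisons between cultures each array was shifted by the median log2 deviation of genes that were not dim, called a common median here. Named genes are the members, 3 fixed lists and the 5 genes nearest to the member with the widest range. PAU4 and PAU17 are named as the other single-gene PAU probe sets, and COX12 was named after its values were seen. The windows of probe set numbers and the settings without PAU23, with PAU4 and PAU17, with probe sets of several genes and with the family-coded median were added after the data were seen. Promoter motifs and protein identity were planned and not analysed here. Quantile normalization and cyclic loess used limma 3.58.1 in R 4.3.3, and other steps used pandas 2.3.3 and numpy 2.4.6 under Python 3.11.15. The range and centring steps were tested on simulated data.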

Additional observations from a re-analysis of the deposited data

How the results depend on the processing

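The 3 arrays of a single group limit every value here, and signals near the sense-strand controls carry little information. No paired analysis was possible because the cultures form 1 group. All 8 members passed a 2-fold range at a common median, and the count was 8 also after quantile normalization, after cyclic loess, with signals floored at the top sense-strand reading, with the median of family-coded probe sets and with dim set under the 10th percentile or not applied. It was 7 with log2(signal + 16), and 1 as deposited or scaled to the hybridization controls. The count of 8 at a common median follows from the inferred rule of choice, so its return under other settings is not read as a finding. The floor left the range of every member as it was. A lower dim limit or none could not remove a member, since none was dim. With dim set under the 50th percentile 3 members were dim and 5 passed among the rest. Leaving out a culture gave 1 to 8 members, 1 being without culture 1, and a median range of 0.17 to 1.36 in place of 1.47. The median range was 0.65 as deposited and 0.55 scaled to the hybridization controls. The median deviation of the members in culture 2, -0.45 at a common median, was 0.086 as deposited, where all genes stood at 0.55. With a culture left out it was -0.68 to -0.011 in culture 2, 0.62 to 0.68 in culture 1 and -0.62 to 0.011 in culture 3, where it changed sign without culture 1. The cause of these changes with scale was not tested. The median of the members' mean signals was 113 to 136 with a culture left out. Mean signals did not depend on the choice of probe set, since each member has 1.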
